A study of Mus musculus with 6 samples.

Results

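The genes described here are 42 genes of G2, the spindle, the kinetochore and cytokinesis, chosen by symbol from a table of 55335 gene identifiers. All 42 were found in the table, and all 42 passed the filter on low counts, as did 19783 genes in all. Their RNA was measured in P14 CD8+ T cells, which carry a transgenic T cell receptor for the GP33-41 peptide of a viral glycoprotein. The cells had been transferred, on day 11 after tumor implantation, into C57BL/6 mice bearing B16-GP33-41 melanomas, which express that peptide, and were sorted later by flow cytometry. There were 3 P14 TIL libraries, from cells sorted out of the tumor, and 3 P14 Sp libraries, from cells sorted out of the spleen of the same tumor-bearing animals. Strain (C57BL/6), age (10-week-old), P14 TCR transgenic genotype and sorting were the same for both groups. The tumors alone went through a Percoll step before sorting, and the labels do not say how long after transfer the cells were taken or whether animals were pooled. The question the design poses for these genes is whether tumor-infiltrating T cells carry more or less of the RNA of dividing cells than T cells of the same specificity in the spleen.

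Cells enter mitosis when cyclin-dependent kinase 1, bound to cyclins A and B, becomes active. The kinetochore, a protein plate built on the centromere, then ties each chromosome to spindle microtubules, and a checkpoint delays anaphase until every kinetochore is attached. Cytokinesis follows, with a central spindle and an actomyosin ring. CD8+ T cells divide rapidly after antigen recognition, and transcripts of this group are low in resting T cells. Many of these genes are switched on together late in the cell cycle through the CHR (cell cycle genes homology region), which the MuvB complex binds, and through CCAAT boxes, which NF-Y binds.

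P14 TIL libraries had more mitotic RNA than P14 Sp libraries, by a modest amount. Of the 42 genes, 33 were higher in P14 TIL and 2 were lower, while 7 did not pass (quasi-likelihood test of edgeR, with adjusted p after Benjamini and Hochberg below 0.05 over all genes tested). The background was high, since 34.8% of all genes tested were higher and 35.9% were lower by the same rule, 70.7% in all. The P14 TIL libraries lay all above the P14 Sp libraries for 33 of the 42 genes, against 35.1% of all genes tested, and all below for 2, against 39.4%. The median fold of the 42 genes was 1.36 (0.44 on the log2 scale), against -0.02 on the log2 scale for all genes tested. The rises were mostly small. Only Kif15 and Bub1 were at least 2-fold higher, 12 genes were 1.5-fold to 2-fold higher, and the other 19 rose by less. At 1.5-fold or more stood 14 of 42 genes, against 21.2% of all genes tested. By role, the 4 genes for CDK1 and its cyclins, the 4 mitotic kinase and passenger genes and 5 of 5 checkpoint genes rose. None of the 4 genes placed in the cytokinesis class did. Each gene was put in a single class, with all kinesins named Kif in their own, and the classes were drawn with earlier results known. P-values measure the spread between these libraries, which may be technical, because nothing in the labels says that they came from separate animals. In bulk RNA, a larger share of dividing cells and more RNA in each dividing cell cannot be told apart.

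**Figure D1:**
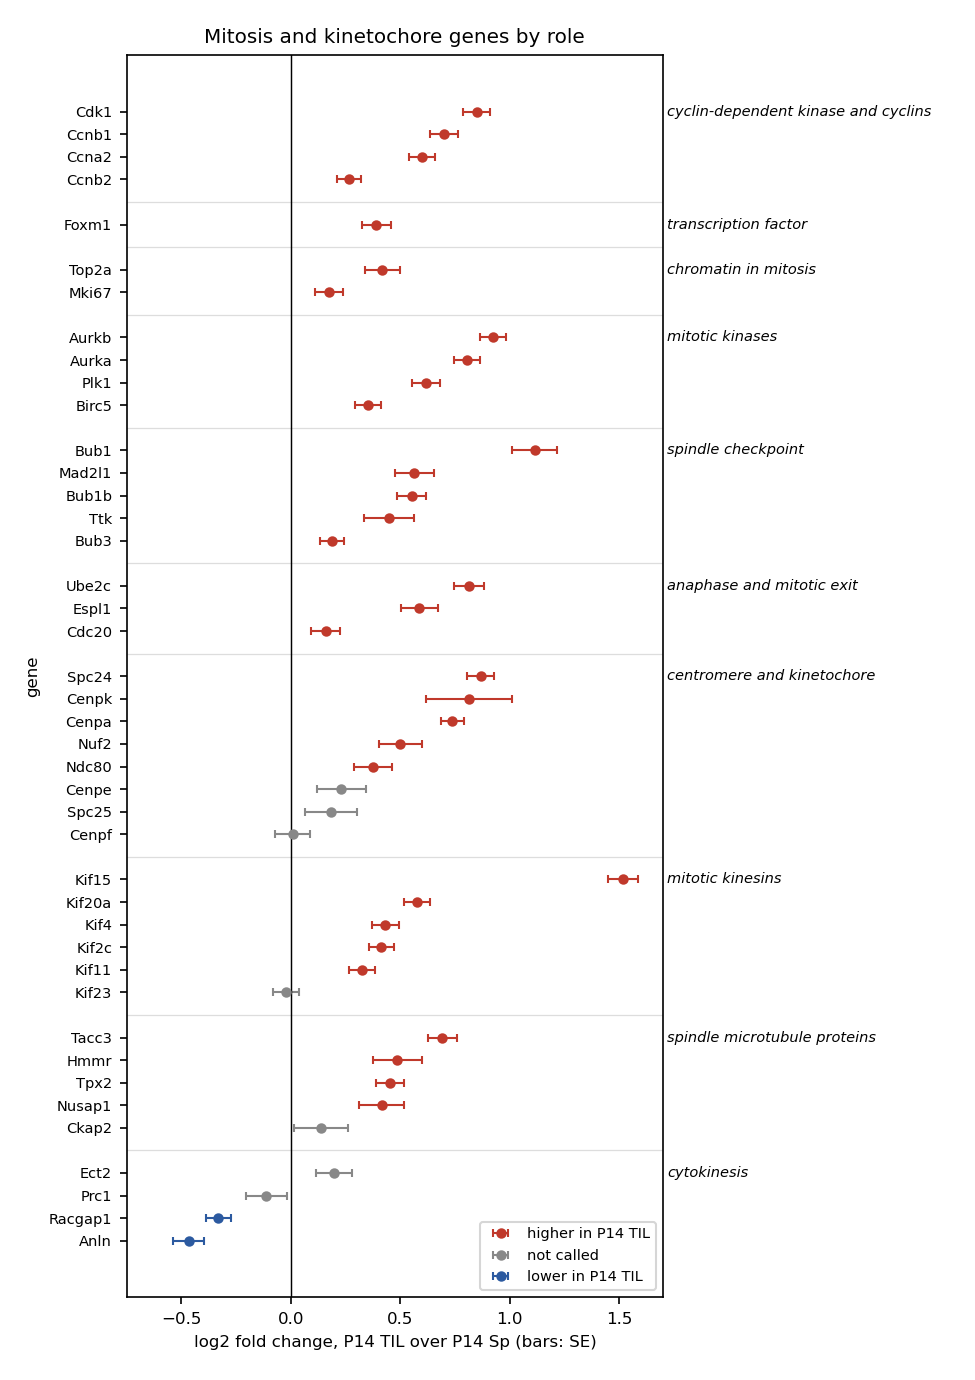
Log2 fold change of each of the 42 genes, P14 TIL over P14 Sp, with its standard error as a bar, grouped by role along the vertical axis. Red marks genes called higher in P14 TIL (33), blue those called lower (2) and grey those not called (7). Kif15 lies farthest right at 1.52 and Anln farthest left at -0.47.

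Total counts ran from 36198681 to 38263483 in P14 TIL and from 35095261 to 37650999 in P14 Sp. The 42 genes took 0.336% to 0.369% of counts in P14 TIL and 0.262% to 0.268% in P14 Sp. CPM is a count after scaling its library to a total of 1000000 counts, and a count of 0 allows at most 0.0855 CPM, counting error only. Cd3e, which encodes a CD3 chain, was at 594 ± 7.4 CPM in P14 TIL and 634 ± 4.66 CPM in P14 Sp (SD, n = 3 each). Cd8a was at 645 ± 21.4 CPM in P14 TIL and 364 ± 6.62 CPM in P14 Sp. All 12 CD8 T cell markers were detected in both groups, and they summed to 4786 to 4922 CPM in P14 TIL and 5359.9 to 5429.7 CPM in P14 Sp. Of these, 3 were higher in P14 TIL, 5 were lower and 4 were not called, with Lck highest in P14 TIL and Cd8b1 in P14 Sp. Counts of calls in this and the other marker lists are to be read against all genes tested, of which 34.8% were higher and 35.9% lower. The 4 CD4 T cell markers summed to 44.5 to 47.9 CPM in P14 TIL and 58.7 to 59.9 CPM in P14 Sp, with Cd40lg highest in P14 TIL and Zbtb7b in P14 Sp, and Cd4 averaged 1.07 CPM in P14 TIL and 7.52 CPM in P14 Sp.

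Markers of several other cell types were lower in P14 TIL. The 16 B cell markers summed to 282 to 284 CPM in P14 TIL and 1476 to 1480 CPM in P14 Sp, and all 16 were lower in P14 TIL, with Cr2 at 0 counts there. Ighm was the highest of them in both groups, at 270.4 CPM in P14 TIL and 807 CPM in P14 Sp. All 11 dendritic cell and MHC class II markers were lower (82.2 to 88.7 CPM in P14 TIL and 1827 to 1871 CPM in P14 Sp), with Itgax highest in P14 TIL, Cd74 in P14 Sp, and Clec9a and Siglech at 0 in P14 TIL. All 18 macrophage and monocyte markers were lower too (42.8 to 44.2 CPM in P14 TIL and 320.4 to 339 CPM in P14 Sp), led by Csf1r in P14 TIL and Lyz2 in P14 Sp. So were the 9 granulocyte markers tested of 10 (0.679 to 0.932 CPM in P14 TIL and 27.1 to 31.1 CPM in P14 Sp), led by Csf3r in P14 TIL and S100a9 in P14 Sp, with Elane, Ngp and Camp at 0 in P14 TIL. The NK cell markers, led by Klrb1c, summed to 6.44 to 10.1 CPM in P14 TIL and 5.16 to 6.27 CPM in P14 Sp, and 3 of 6 were higher.

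Erythroid markers, mostly globins led by Hba-a1, summed to 248 to 275 CPM in P14 TIL and 220.5 to 224 CPM in P14 Sp, with 5 of 11 higher and 5 lower. Klf1 and Car1, picked for mention, were among the 5 lower ones. Klf1 was at 0.116 CPM in P14 TIL and 2.95 CPM in P14 Sp, and Car1 at 0 counts in P14 TIL and 5.46 CPM in P14 Sp. Fibroblast and endothelial markers, led by Pecam1, summed to 52.4 to 57.1 CPM in P14 TIL and 89.1 to 91.8 CPM in P14 Sp, with 2 of 3 tested lower and Col3a1 and Pdgfra at 0 in P14 TIL. The 11 melanoma and melanocyte markers summed to 23.3 to 24.9 CPM in P14 TIL and 33.2 to 33.7 CPM in P14 Sp, led by Gpnmb in P14 TIL and Pmel in P14 Sp, and 2 of 5 tested were higher and 1 lower. Among them Dct averaged 0.46 CPM in P14 TIL and 0.00885 CPM in P14 Sp, and Tyrp1 averaged 0.575 CPM in P14 TIL and 0 counts in P14 Sp. The part of other cells in the levels of mitotic genes was not tested. The codes of the columns share one ending in P14 TIL and another in P14 Sp, and if these mark batches, tissue cannot be told apart from them.

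The promoters of these genes show what they share apart from their RNA levels. Promoter windows from 250 bases before to 50 bases after the start site (RefSeq, GRCm38.p6, which is mm10) were at hand for 36 of the 42 genes; Foxm1, Spc24, Aurkb, Kif20a, Ccna2 and Tpx2 are named only. A CHR, searched as TTTGAA on both strands, was found in 27 of the 36 genes, or 75%, against 20.2% of the 27025 genes with a window. Within 50 bases of the start site it was found in 24 of 36 genes (66.7%), against 5.72% of all genes. A CCAAT box, searched as CCAAT on both strands, was present in 27 of 36 genes (75%), against 41.1% of all genes, and 18 of 36 held more than 1 match, against 13.3%. Both motifs were found in 23 of 36 genes, or 63.9%, against 8.97% of all genes. Only 5 of 37 DNA replication genes with a window held a CHR (13.5%), while 24 of 37 held a CCAAT box (64.9%). A CHR was found in 19 of 27 genes that were higher in P14 TIL and in 8 of the 9 that were lower or not called. A match is a string of letters and not a measured binding site.

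The stretches shown here carry the motifs for the most used markers of cell division, Cdk1, Top2a, Mki67, Ccnb1 and Cdc20, and for Bub1, the strongest riser of the checkpoint. They end at the base before the start site and are written 5′ to 3′ on the strand of the gene, with CHR and CCAAT matches in capitals (TTCAAA and ATTGG are the same motifs read on the other strand). All are from GRCm38.p6. A further CCAAT match of Cdk1, at position -208 from the start site, lies outside its stretch. Cdk1 is at chr10:69352913-69353032, Top2a at chr11:99024190-99024429, Mki67 at chr7:135716380-135716574, Ccnb1 at chr13:100786487-100786606, Cdc20 at chr4:118437344-118437403 and Bub1 at chr2:127831860-127831939, all on the minus strand.
Cdk1: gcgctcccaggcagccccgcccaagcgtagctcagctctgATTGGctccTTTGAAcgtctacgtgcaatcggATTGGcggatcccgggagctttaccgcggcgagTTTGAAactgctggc
Top2a: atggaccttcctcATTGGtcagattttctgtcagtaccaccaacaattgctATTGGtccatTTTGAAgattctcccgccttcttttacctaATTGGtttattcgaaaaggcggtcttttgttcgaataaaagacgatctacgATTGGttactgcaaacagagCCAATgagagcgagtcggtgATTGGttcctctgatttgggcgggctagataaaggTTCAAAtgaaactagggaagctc
Mki67: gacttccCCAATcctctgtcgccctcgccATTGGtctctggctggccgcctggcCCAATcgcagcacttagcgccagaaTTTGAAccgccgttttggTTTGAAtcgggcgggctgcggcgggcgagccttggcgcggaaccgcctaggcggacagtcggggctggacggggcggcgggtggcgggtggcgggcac
Ccnb1: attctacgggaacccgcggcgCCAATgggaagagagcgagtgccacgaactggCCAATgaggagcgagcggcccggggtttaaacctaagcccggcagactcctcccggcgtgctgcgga
Cdc20: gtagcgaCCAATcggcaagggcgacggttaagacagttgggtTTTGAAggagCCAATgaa
Bub1: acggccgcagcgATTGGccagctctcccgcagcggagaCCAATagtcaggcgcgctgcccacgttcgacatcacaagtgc
Cdk1 and Cdc20 have a CHR within 20 bases of the start, each near CCAAT boxes. Ccnb1 and Bub1 have CCAAT boxes in pairs and no match to TTTGAA in the window. Other spellings of the CHR were not searched.

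**Figure D2:**
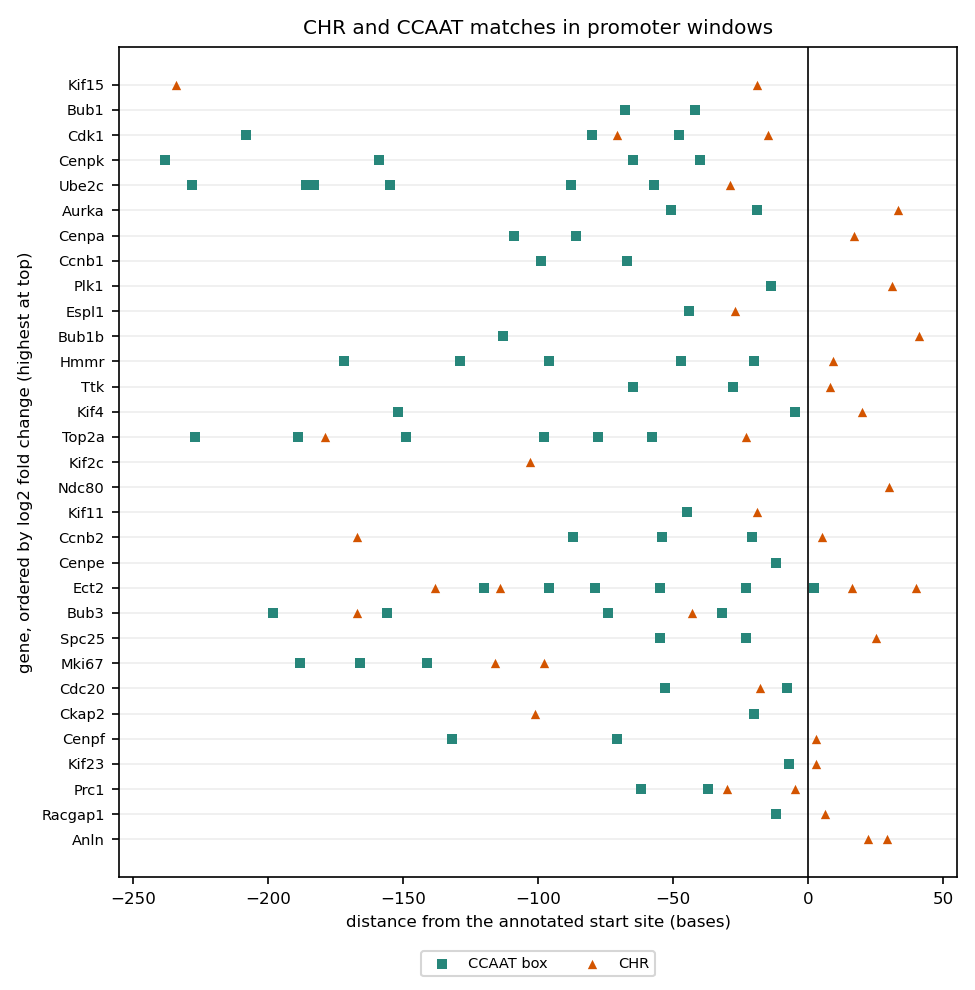
Positions of CHR (triangles) and CCAAT (squares) matches, in bases from the annotated start site at the vertical line, in the promoter windows of the genes that held a match, ordered from the largest log2 fold change at the top (Kif15, 1.52) to the smallest (Anln, -0.47). For genes with several annotated starts, matches from each window are shown. CHR matches gather near the start site from top to bottom of the order.

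Cdk1, the kinase that drives entry into mitosis, was at 74.3, 75.1 and 78.1 CPM in P14 TIL and at 44.2, 40.6 and 44.1 CPM in P14 Sp. The 2 groups did not overlap, and all P14 TIL libraries lay well above the highest spleen library (1.80-fold, or 0.85 on the log2 scale, SE 0.06, adjusted p = 2.3e-07). Ccnb1, the gene for cyclin B1, was at 78.7, 76.6 and 87.7 CPM in P14 TIL and at 51.1, 52.5 and 49.0 CPM in P14 Sp (1.62-fold, adjusted p = 2.0e-06). Ccna2, for cyclin A2, rose 1.52-fold (adjusted p = 3.4e-06). Ccnb2, for cyclin B2, rose least of the cyclins, at 99.8, 108 and 104 CPM in P14 TIL and 87.8, 86.4 and 90.4 CPM in P14 Sp (1.20-fold, SE 0.06 on the log2 scale, adjusted p = 0.0011). Its groups did not overlap either. Per kilobase of exon, however, Ccnb2 had the highest level of the 42 genes in both groups, 67.8 CPM per kilobase in P14 TIL and 57.6 in P14 Sp, against 19.2 and 12.1 for Ccnb1. Foxm1, which encodes a transcription factor that activates G2 and mitosis genes, was at 73.8, 74.5 and 67.5 CPM in P14 TIL and at 57.2, 57.1 and 53.8 CPM in P14 Sp (1.31-fold, adjusted p = 0.00025).

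The usual marker of cycling cells moved little. Mki67, which encodes Ki-67, a coat protein of mitotic chromosomes, was at 173, 170 and 202 CPM in P14 TIL and at 165, 162 and 165 CPM in P14 Sp. Replicates 1 and 2 of P14 TIL lay just above the spleen libraries and replicate 3 stood apart. The fold was 1.13 (log2 fold change 0.17, SE 0.06, adjusted p = 0.031). That call was lost with upper-quartile scaling (0.12, adjusted p = 0.11), with library totals alone and when any single spleen library was left out. It was kept without P14 TIL replicate 3, at a log2 fold change of 0.11 (adjusted p = 0.026). Adjusted p ran from 0.011 to 0.11 over the alternatives. Top2a, the gene for topoisomerase II alpha, which untangles sister chromatids, was at 243, 252 and 314 CPM in P14 TIL and at 204, 209 and 204 CPM in P14 Sp (1.34-fold, adjusted p = 0.00065). Here too replicate 3 was the highest, but all P14 TIL libraries were clear of the spleen.

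Mitotic kinases rose by more. Aurkb, for Aurora B, the kinase that corrects faulty attachments, was at 112, 118 and 109 CPM in P14 TIL and at 59.4, 63.5 and 59.3 CPM in P14 Sp. The groups were far apart and each was tight (1.90-fold, or 0.92 on the log2 scale, SE 0.06, adjusted p = 1.1e-07). Aurka, for Aurora A of the spindle poles, rose 1.75-fold and Plk1, for polo-like kinase 1, rose 1.53-fold (adjusted p = 3.2e-07 and 5.1e-06). Birc5, for survivin, which works in the same chromosomal passenger complex as Aurora B, was at 94.9, 102 and 109 CPM in P14 TIL and at 83.1, 81.8 and 79.9 CPM in P14 Sp, a smaller rise (1.28-fold, adjusted p = 0.00025). The other 2 subunits of that complex, chosen for mention after their values were seen, were Cdca8, for borealin (1.49-fold, adjusted p = 2.5e-06), and Incenp (1.33-fold, adjusted p = 0.0013). Both were higher in P14 TIL, as were 34.8% of all genes tested.

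All 5 genes of the spindle checkpoint rose. Bub1, a checkpoint kinase that marks the kinetochore, was at 43.2, 49.9 and 60.9 CPM in P14 TIL and at 24.7, 23.9 and 23.9 CPM in P14 Sp. The P14 TIL libraries differed among themselves, yet the lowest of them was far above the spleen (2.16-fold, or 1.11 on the log2 scale, SE 0.10, adjusted p = 1.8e-06). Its promoter window, shown in part above, held CCAAT matches and no match to TTTGAA. Mad2l1, for MAD2, the inhibitor that the checkpoint produces, rose 1.48-fold (adjusted p = 0.00016), Bub1b, for BUBR1, 1.47-fold (adjusted p = 2.0e-05), and Ttk, for the kinase MPS1, 1.36-fold (adjusted p = 0.0044). Bub3, the partner that holds BUB1 and BUBR1 at the kinetochore, changed least, at 161, 153 and 165 CPM in P14 TIL and 144, 145 and 139 CPM in P14 Sp (1.14-fold, SE 0.05 on the log2 scale, adjusted p = 0.0082).

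The genes for leaving mitosis were uneven. Ube2c, the ubiquitin-conjugating enzyme of the anaphase-promoting complex, was at 83.8, 100.02 and 92.2 CPM in P14 TIL and at 52.9, 54.4 and 52.9 CPM in P14 Sp (1.76-fold, or 0.81 on the log2 scale, SE 0.07, adjusted p = 8.4e-07). Espl1, for separase, which cuts cohesin at anaphase, rose by 0.59 on the log2 scale (adjusted p = 6.7e-05). Cdc20, the activator of the complex and the target of the checkpoint, was at 98.8, 93.5 and 87.9 CPM in P14 TIL and at 84.7, 84.2 and 87.3 CPM in P14 Sp. The highest spleen library all but touched the lowest P14 TIL library, and the fold was 1.12 (log2 fold change 0.16, SE 0.06, adjusted p = 0.046). The Cdc20 call was lost in 10 of 13 alternatives, the fit with a replicate block among them (adjusted p = 0.070), with adjusted p from 0.0014 to 0.16.

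Centromere and kinetochore genes rose for 5 of 8, with none lower. Cenpa, the histone variant that marks the centromere, rose 1.67-fold, to 190.3 ± 6.24 CPM in P14 TIL against 116 ± 2.06 CPM in P14 Sp (SD, n = 3 each). The NDC80 complex, which grips the microtubule, has 4 subunits, and their genes did not rise alike. Spc24 was at 51.4, 50.6 and 49.9 CPM in P14 TIL and at 28.1, 28.5 and 28.4 CPM in P14 Sp, with little spread in either group (1.82-fold, or 0.87 on the log2 scale, SE 0.06, adjusted p = 2.1e-07). Nuf2 rose 1.41-fold and Ndc80 1.30-fold (adjusted p = 0.00067 and 0.0024). Spc25, whose product pairs with that of Spc24, was at 18.8, 21.7 and 28.0 CPM in P14 TIL and at 21.1, 19.3 and 21.0 CPM in P14 Sp, overlapping groups that gave no call (log2 fold change 0.19, SE 0.12, adjusted p = 0.18). Whether Spc24 and Spc25 differ from each other in their response was not tested.

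Cenpk, of the inner kinetochore, had the widest spread of the 42 genes, with 6.75, 10.8 and 13.6 CPM in P14 TIL against 5.91, 6.29 and 5.78 CPM in P14 Sp. It was called higher (1.76-fold, SE 0.20 on the log2 scale, adjusted p = 0.0030), although its lowest P14 TIL library was close to the spleen. Cenpe, a kinesin that carries chromosomes to the spindle equator, was at 33.8, 39.6 and 50.2 CPM in P14 TIL and at 37.0, 35.01 and 35.3 CPM in P14 Sp, with P14 TIL replicate 1 below every spleen library (0.23, SE 0.11, adjusted p = 0.086). Cenpf, of the outer kinetochore, was not called, at 35.5, 34.4 and 41.9 CPM in P14 TIL and 40.0, 37.7 and 35.7 CPM in P14 Sp (log2 fold change 0.01, SE 0.08, adjusted p = 0.94). Without P14 TIL replicate 1, Cenpe (0.36, adjusted p = 0.0030) and Spc25 (0.31, adjusted p = 0.014) were called higher. Without P14 TIL replicate 3, the log2 fold change was 0.08 for Cenpe and 0.03 for Spc25. Over the alternatives adjusted p ran from 0.0030 to 0.29 for Cenpe and from 0.014 to 0.72 for Spc25.

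Among the mitotic kinesins, Kif15 stood out. It encodes a motor that keeps the spindle poles apart alongside the KIF11 motor, and it was at 72.1, 82.3 and 83.4 CPM in P14 TIL and at 28.9, 28.2 and 27.6 CPM in P14 Sp. All P14 TIL libraries were far above all spleen libraries (2.86-fold, or 1.52 on the log2 scale, SE 0.07, adjusted p = 5.1e-09), the largest rise of the 42 genes in this fit. Kif11 itself rose by 0.32 on the log2 scale, Kif20a 1.49-fold, Kif4 1.35-fold and Kif2c, a microtubule depolymerase, 1.33-fold (adjusted p from 4.9e-06 to 0.00045). Kif23, a kinesin of the central spindle, did not pass, at 45.8, 47.8 and 49.8 CPM in P14 TIL and 50.5, 50.0 and 48.0 CPM in P14 Sp (log2 fold change -0.02, SE 0.06, adjusted p = 0.75).

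Spindle microtubule proteins rose for 4 of 5 genes. Tacc3, which with clathrin bundles kinetochore fibres, was at 167, 159 and 160.3 CPM in P14 TIL and at 111, 99.97 and 96.5 CPM in P14 Sp (1.62-fold, or 0.69 on the log2 scale, SE 0.06, adjusted p = 2.2e-06). The groups were clearly apart. Hmmr rose 1.40-fold, Tpx2, the activator of Aurora A, 1.37-fold, and Nusap1 1.33-fold (adjusted p = 0.0020, 7.3e-05 and 0.0034). Ckap2, a spindle-associated protein, overlapped, at 14.9, 17.3 and 21.0 CPM in P14 TIL and 16.5, 18.5 and 14.3 CPM in P14 Sp (log2 fold change 0.14, SE 0.12, adjusted p = 0.34).

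Of the 4 genes placed in the cytokinesis class, 2 were lower and 2 did not pass. Racgap1, which with KIF23 forms the centralspindlin complex, was at 154, 164 and 148 CPM in P14 TIL and at 201, 202 and 196 CPM in P14 Sp. All P14 TIL libraries were below all spleen libraries (log2 fold change -0.33, SE 0.06, adjusted p = 0.00031). Anln, for anillin, the scaffold of the contractile ring, was at 14.3, 14.9 and 15.8 CPM in P14 TIL and at 21.3, 21.0 and 21.1 CPM in P14 Sp, again without overlap (log2 fold change -0.47, SE 0.07, adjusted p = 0.00012). Ect2, the exchange factor that turns on RhoA at the cell equator, was at 29.4, 35.3 and 35.1 CPM in P14 TIL and at 31.8, 28.8 and 28.3 CPM in P14 Sp (0.20, SE 0.08, adjusted p = 0.052). Prc1, which bundles the antiparallel microtubules of the central spindle, was at 59.5, 54.2 and 72.6 CPM in P14 TIL and at 71.0, 70.5 and 63.7 CPM in P14 Sp (-0.11, SE 0.09, adjusted p = 0.30). For both, the groups overlapped, and leaving out a single library could change the call. Without the filter on low counts, Ect2 was also called higher (0.21, adjusted p = 0.031). Ect2 was called higher without P14 TIL replicate 1 (0.28, adjusted p = 0.0040) and Prc1 lower without P14 TIL replicate 3 (-0.22, adjusted p = 0.0076), while Prc1 was at -0.02 without P14 TIL replicate 2, with adjusted p over all alternatives from 0.0040 to 0.17 for Ect2 and from 0.0076 to 0.85 for Prc1. Anln and Racgap1 stayed lower in all 13 alternatives. B cell, macrophage and dendritic cell markers were lower in the same libraries, as given above, and their part in these falls was not tested.

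A CHR match was found in all 4 cytokinesis genes. Short windows of 30 bases around a CHR are shown for Racgap1 and Anln, which fell, and for Kif15, which rose most. The window of Kif23, which was not called, is shown too. In GRCm38.p6 the window of Kif15 lies at chr9:122951050-122951079 on the plus strand. On the minus strand lie those of Kif23 at chr9:61946785-61946814, Racgap1 at chr15:99651639-99651668 and Anln at chr9:22389169-22389198. Capitals are as above.
Kif15: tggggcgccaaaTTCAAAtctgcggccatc
Kif23: ggccgctgATTGGcctgTTTGAAatgcgcc
Racgap1: ATTGGctggtgcgtgatTTTGAAccggatc
Anln: cggggcgctgaaaTTCAAAtTTTGAAcggc
Racgap1 and Kif23 have a CCAAT box just before the CHR, whereas Kif15, the strongest riser, and Anln have none in their windows.

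**Figure D3:**
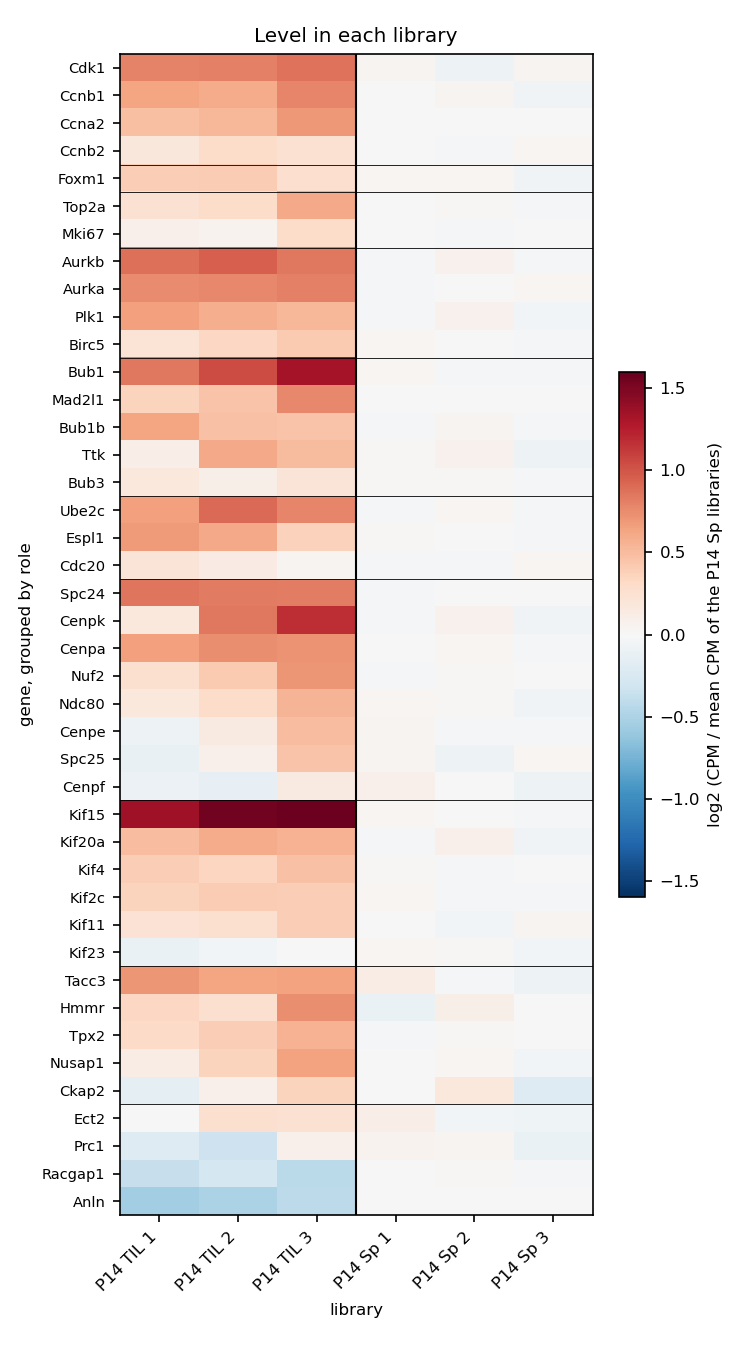
Level of each of the 42 genes in each library as log2 of its CPM over the mean CPM of the P14 Sp libraries, on a colour scale from blue (lower) to red (higher), with the 3 P14 TIL libraries left of the line and the 3 P14 Sp libraries right of it. The P14 TIL columns are red for most genes and blue for Racgap1 and Anln, and the third P14 TIL column is the darkest for genes such as Bub1 and Cenpk.

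The tumor libraries varied among themselves more than the spleen libraries did. The median coefficient of variation of the 42 genes was 7.52% over P14 TIL and 2.33% over P14 Sp, and it was larger in P14 TIL for 37 of 42. The same held for the 11268 genes tested with a mean of at least 8.18 CPM, the lowest mean among the 42, whose medians were 7.20% and 3.38%. P14 TIL replicate 3 was the highest P14 TIL library for 26 of the 42 genes (61.9%), against 42.5% of those 11268 genes. The coefficient of variation over P14 TIL was above 15% for 11 of the 42 genes. These were Cenpk (33.1%), Spc25 (20.7%), Cenpe (20.3%), Hmmr (19.1%), Nusap1 (18.5%), Bub1 (17.4%), Ttk (17.2%), Ckap2 (17.2%), Nuf2 (16.1%), Prc1 (15.3%) and Mad2l1 (15.2%). All but Ttk, which was highest in replicate 2, were highest in replicate 3. Others, such as Spc24, Aurka, Kif2c and Cdk1, were nearly equal in all 3 P14 TIL libraries. Without P14 TIL replicate 3, 33 of the 42 genes were higher and 3 were lower.

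Reads from overlapping genes limit a few values. Exons of 9 of the 42 genes share bases with a counted gene of the other strand. Whether featureCounts used strand is not stated for these counts. The overlap was widest for Kif20a, with 29.3% of its exon bases shared with Cdc23, a gene that did not pass (log2 fold change 0.09), followed by Kif4 with Pdzd11 (15.1%), Ccna2 with Exosc9 (12.5%) and Prc1 with Rccd1 (11.1%), which fell by 0.44 on the log2 scale (adjusted p = 0.00083). Of the 33 genes with no such overlap, 25 were higher in P14 TIL.

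DNA replication genes, which act before mitosis, had larger folds. The 42 mitotic genes summed to 3364, 3461 and 3685 CPM in P14 TIL and to 2674, 2679 and 2622 CPM in P14 Sp, a ratio of means of 1.32. The 45 DNA replication genes summed to 5629, 5563 and 5511 CPM in P14 TIL and to 3064, 3081 and 3046 CPM in P14 Sp, a ratio of 1.82. Mitotic over replication sums were thus 0.598, 0.622 and 0.669 in P14 TIL and 0.873, 0.869 and 0.861 in P14 Sp. Every P14 TIL library had less mitotic RNA per replication RNA than every spleen library. Of the replication genes 44 of 45 rose, against 34.8% of all genes tested. Their median was 0.94 on the log2 scale, and Rpa1 did not pass (-0.02). Mcm10, which helps start replication forks, averaged 60.1 ± 0.813 CPM in P14 TIL and 23.3 ± 0.729 CPM in P14 Sp (2.63-fold, adjusted p = 4.5e-09). Mcm6, a helicase subunit, rose 2.14-fold. The lists overlap in no gene, and no test of their difference was made.

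**Figure D4:**
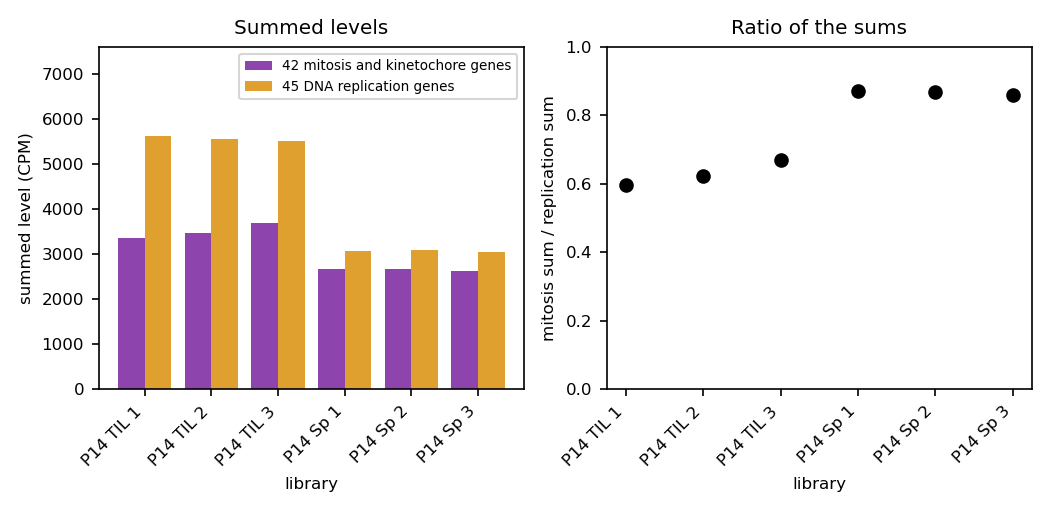
Left, summed CPM of the 42 mitosis and kinetochore genes (purple) and of the 45 DNA replication genes (orange) in each library, with bars from 0. Right, the mitotic sum divided by the replication sum, at 0.598 to 0.669 in the 3 P14 TIL libraries and 0.861 to 0.873 in the 3 P14 Sp libraries.

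Other genes of the same machinery are given as counts, to be read against the 34.8% of all genes tested that were higher and the 35.9% that were lower. Of 39 further kinetochore and checkpoint genes, 23 rose and 4 fell, with a median of 0.41. Trip13, an ATPase that disassembles checkpoint complexes (2.47-fold), and Kntc1, of the complex that brings dynein to kinetochores (1.14 on the log2 scale), led the rises, and Mis12 (-0.27) and Haspin (-0.25) led the falls by p-value. The 4 falls became 1 without P14 TIL replicate 2 or P14 Sp replicate 2, 2 without P14 Sp replicate 3, and 7 without P14 TIL replicate 3. Of 36 further spindle, centrosome and cytokinesis genes, 24 rose and 4 fell (7 lower without P14 TIL replicate 3). Psrc1 (2.91-fold) and the alpha-tubulin gene Tuba1b (1.69-fold, at 1326 ± 40.1 CPM in P14 TIL and 803 ± 10.9 CPM in P14 Sp) rose, whereas Depdc1b (-0.78) and Kif2a (-0.63) fell. Reads of tubulin genes may be split among close copies, so the value of Tuba1b is uncertain.

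Condensin, cohesin and separase genes were split, with 10 of 20 higher and 4 lower. The condensin gene Ncaph (1.91-fold) and Cdca5, for sororin (1.80-fold), rose, while the cohesin loader Nipbl (-0.65) and the cohesin subunit Stag2 (-0.44) fell. Of 29 genes for mitotic entry and the anaphase-promoting complex, 14 were higher and 5 lower. Gtse1 rose 2.29-fold and Cks1b 1.56-fold. Cdc25b, a phosphatase that activates CDK1, was lower, at 164 ± 10.5 CPM in P14 TIL and 402 ± 2.64 CPM in P14 Sp (log2 fold change -1.26, SE 0.06, adjusted p = 1.3e-08). Ensa fell by 0.27 on the log2 scale. Of the regulators of CHR and CCAAT promoters, 4 of 9 rose and 3 fell, shares near those of all genes tested (34.8% higher and 35.9% lower). Mybl2, for B-MYB, which joins MuvB to activate mitotic genes, rose 2.78-fold, to 81.0 ± 3.7 CPM in P14 TIL against 29.7 ± 1.04 CPM in P14 Sp, and Rbbp4 rose 1.27-fold. Of the MuvB core genes, Lin37 (-0.41), Lin52 (-0.36) and Lin9 (-0.32) were lower, and Lin54 (0.39) and Rbbp4 were higher.

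Regulators of the cell cycle upstream also changed in both directions. Their counts are to be read against all genes tested, of which 34.8% were higher and 35.9% lower. Of 21 genes for G1 to S cyclins, kinases and E2F factors, 14 rose, among them Cdk6 (2.24-fold) and Tfdp1, the partner of E2F proteins (2.12-fold), and 6 fell, among them E2f2 (-1.03) and Ccnd1 (-2.82, at 0.458 CPM in P14 TIL and 3.32 CPM in P14 Sp). The 3 D-type cyclin genes were all lower. Of 13 tested cell cycle inhibitors and quiescence genes, 10 were lower and 2 higher, and Cdkn2a and Cdkn2b did not pass the filter. Tob1 (-1.71) and Foxo1 (-0.93), genes linked to T cell quiescence, fell. Cdkn1a, which encodes the CDK inhibitor p21, was the exception in size, at 43.0, 42.3 and 41.4 CPM in P14 TIL and at 4.95, 3.48 and 4.45 CPM in P14 Sp (10.0-fold, or 3.33 on the log2 scale, SE 0.11, adjusted p = 5.6e-10). Every P14 TIL library was thus many times above the spleen. The other gene of that list that rose was Ccng1 (1.33-fold).

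**Figure D5:**
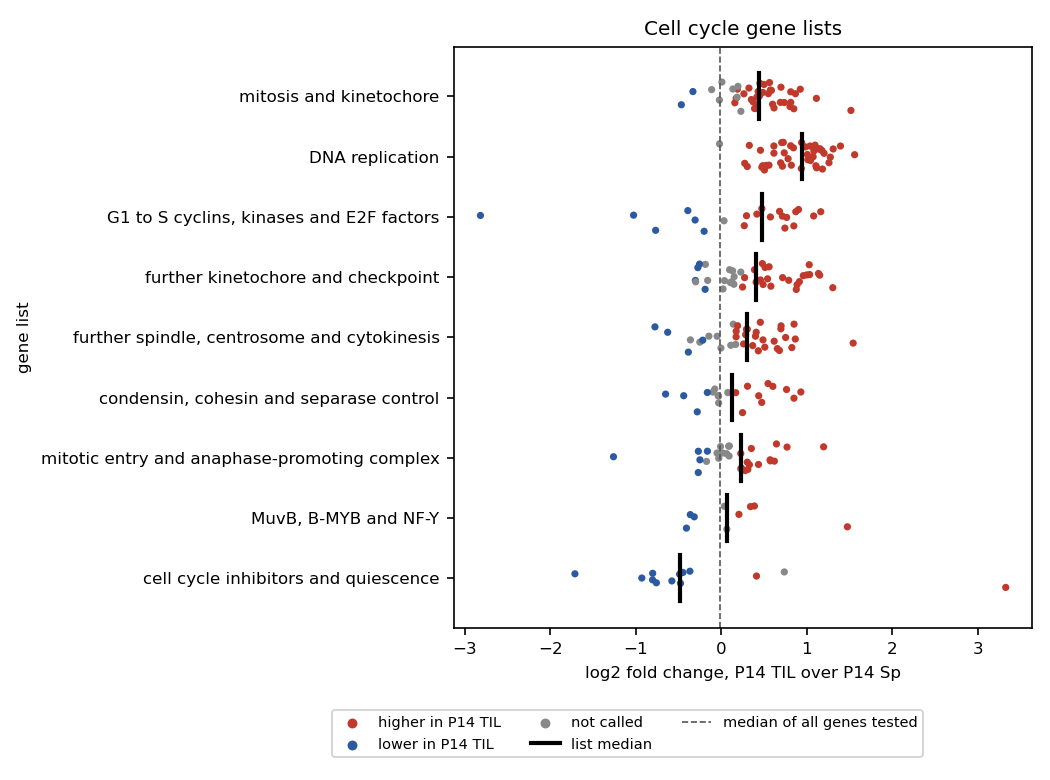
Log2 fold change, P14 TIL over P14 Sp, of every tested gene in 9 cell cycle lists, 1 point a gene, with the list median as a black bar and the median of all genes tested as a dashed line at -0.02. Red points were called higher, blue lower and grey not called. The replication list lies farthest right, with a median of 0.94, the 42 mitosis and kinetochore genes follow the G1 to S list with 0.44 against 0.47, and the inhibitor list lies left of the line at -0.49.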

How the data were processed

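The authors deposited raw counts, as whole numbers for each gene and library, with no normalization. According to the submitters' processing notes, STAR 2.3, featureCounts, bcl2fastq 2.20.0.422 and the mm10 genome were used. For featureCounts, the version, annotation and strand setting were not stated. Per the labels' protocols, cDNA was amplified from low input and made into stranded libraries, read as single 50 bp reads. Symbols and exon lengths (union of exons) came from GENCODE M21, and 55154 of 55335 identifiers had a symbol. 1 erythroid marker, Ahsp, was not matched.

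P14 TIL was compared with P14 Sp by the quasi-likelihood F-test of edgeR 4.0.16 (R 4.3.3, TMM scaling, filterByExpr at a minimum count of 10 and total of 15, Benjamini-Hochberg adjusted p below 0.05 over 19783 genes). This procedure was also run on simulated counts with equal dispersion in both groups, which does not cover the unequal spread given below. SE is the log2 fold change divided by the root of its F statistic. CPM used library totals. The biological coefficient of variation was 10.4% in P14 TIL and 3.21% in P14 Sp. Deviations of equal-numbered libraries from their tissue means correlated at -0.000787, 0.0157 and 0.00242, and those of unequal numbers at -0.0197 to 0.0142. Because the spread may be technical, these values cannot show whether equal numbers mark the same animal, which the labels do not say. Alternatives were other scalings, no filter, limma-voom 3.58.1, DESeq2 1.42.0, a replicate block and leaving out each library.

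The members, role classes, gene lists and rule for named genes were chosen with earlier results of these data known. Values in each library are given for Mki67, Top2a, Cdk1, Ccnb1 and Aurkb, for the largest and smallest log2 fold change in each role, and for members lower or not called; of related lists, the 2 smallest p-values in each direction are named. Other genes named were picked after their values were seen.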

Additional observations from a re-analysis of the deposited data

How the results depend on the processing

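Of the 35 called genes of the 42, none changed direction in any of 13 alternatives, and 33 kept their call in all of them. The exceptions were Mki67 and Cdc20. The number of the 42 called higher ran from 31 to 35 and the number called lower from 2 to 3. The median log2 fold change of 0.44 became 0.39 with upper-quartile scaling and ran from 0.41 to 0.50 when single libraries were left out, 0.50 being without P14 TIL replicate 1. With a replicate block, 32 were higher and 2 lower, with a median of 0.43, and Cdc20 was the only call of the 42 that it changed. DESeq2 gave 32 higher and limma-voom 33. Over all genes, 6890 were higher and 7093 lower, and 6421 and 7621 with upper-quartile scaling. Without the filter on low counts, which adds rarely counted genes, the median of all genes moved by -0.13, 35 of the 42 were called higher, and Cenpe (adjusted p = 0.0073) and Ect2 (adjusted p = 0.031) were among them. Of 208 counts of calls in related lists, 5 moved by over 1.5 times, each a count of lower genes after leaving out 1 library. Where a cause of a change is not stated, it was not tested. The rarest of the 42 genes averaged 8.18 CPM over all libraries.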
